A study of Mus musculus with 4 samples.

Results

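Serine proteases cut proteins with a serine in their active site, and many members of the Prss and Tmprss families are made in the testis. The members described here were all gene symbols in the deposited tables that begin with Prss, Tmprss, Tessp or Tesp, and 53 of 22552 symbols did so (37 Prss, 16 Tmprss and 0 under the older names). Their transcript levels were compared between Fam46c KO and WT testes. Of the 53, 20 were tested because their FPKM, averaged across all 4 libraries, was 1 or more, and 33 were below that.

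Testis RNA of adult male mice on a DBA/C57 F1 background was sequenced, with 2 libraries from Fam46c KO and 2 from WT mice. FAM46C is a noncanonical poly(A) polymerase, and the study looked for testis genes whose level differs when it is absent. Neither the allele nor the number of animals behind each group is given in the sources used here. A p-value therefore reflects only how far these 4 libraries scatter, and that scatter may be technical. The whole testis was the sample, so fewer cells of a type and less RNA per cell cannot be told apart. FPKM is a level scaled to transcript length and to the number of mapped fragments, so levels can be set side by side between genes.

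Each library held 489702 to 528756 FPKM in all. The steps of low values put the depth of KO replicates 1 and 2 at 0.781 and 0.905 of WT replicate 2, and that of WT replicate 1 at 0.901. Fam46c itself stood at 131 and 129.9 FPKM in the KO libraries, against 236 and 134 FPKM in the WT libraries (limma log2 fold change -0.45, SE 0.21, adjusted p = 1). The mutated part of the gene is not given, so this level does not check the labels. Germ cell markers stood high and markers of other organs low. The summed level of 6 spermatid markers was 66576 and 53543 FPKM in KO and 45495 and 59936 FPKM in WT, and that of 6 spermatocyte markers was 4087 and 3917 FPKM in KO and 3951 and 3842 FPKM in WT. Summed levels of 5 mast cell markers stayed at 0.0689 to 0.489 FPKM and those of 6 pancreas markers at 1.28 to 2.36 FPKM over the 4 libraries.

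Trypsin-like proteases are made as inactive precursors and share a catalytic triad of histidine, aspartate and serine. In mouse sperm, members sit in the acrosome, the secretory cap that opens at fertilization, or on the surface through a lipid anchor or a transmembrane segment. Several are needed in mice for the maturation of ADAM3, a surface protein without which sperm do not enter the oviduct. Others have lost active-site residues and are called pseudoproteases.

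The coding sequence around a pattern linked to the active-site serine differs between members of the family and is shown for 7 of the tested genes. The reading frame of the longest coding sequence of each member (GENCODE M21, GRCm38 reference, coding strand) was searched for a glycine codon, an aspartate or glutamate codon, any codon and 2 glycine codons in a row, a pattern whose free codon stands at the active-site serine of trypsin-like enzymes. The windows below run 5′ to 3′ over 45 bases, with that codon in capitals.
Prss39: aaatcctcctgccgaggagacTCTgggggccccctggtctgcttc
Prss40: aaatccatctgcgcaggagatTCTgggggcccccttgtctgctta
Prss55: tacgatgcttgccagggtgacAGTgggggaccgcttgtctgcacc
Prss21: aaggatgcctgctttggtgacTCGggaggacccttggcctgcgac
Tmprss12: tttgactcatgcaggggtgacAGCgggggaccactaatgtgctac
Prss45: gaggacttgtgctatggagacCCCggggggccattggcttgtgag
Prss35: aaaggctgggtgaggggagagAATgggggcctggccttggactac
The first 5 windows carry a serine codon (TCN, AGC or AGT), whereas Prss45 has CCC and Prss35 has AAT at the free codon of the pattern. The Prss35 window lacks the cysteine codon (TGC) that stands before the pattern in all the other windows shown. It also has a glutamate codon (gag) where they have aspartate. Whether the Prss35 match lies at its active site was not tested.

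Of the 20 tested members, 10 had the pattern with a serine codon, 2 (Prss45 and Prss35) had it with another codon and 8 had no match. The 8 were Prss37, Prss38, Prss43, Prss46, Prss50, Prss51, Prss54 and Prss58. Of the 33 members with lower levels, 28 had a serine codon, 1 had another codon and 4 had no match. The 1 was Tmprss9, which has 3 matches in frame and was classed by the last of them alone. The pattern was found in 2.59% of 21562 mouse coding sequences. No match says only that these letters are not in this reading frame. The 10 tested members with a serine codon summed to 674.7 and 623.7 FPKM in KO and 575.0 and 662.9 FPKM in WT. The 8 members without a match summed to 385.7 and 477.1 FPKM in KO and 352.6 and 435.0 FPKM in WT, so transcripts without the pattern made up a large part of the family total in each library.

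The family as a whole took 0.208% and 0.232% of all FPKM in the KO libraries and 0.195% and 0.229% in the WT libraries. Its sum was 1098 and 1136 FPKM in KO and 969.9 and 1137 FPKM in WT, so WT replicate 1 was the lowest library and the groups overlapped. The 5 highest genes carried 65.3% and 70.3% of that sum in KO and 62.2% and 67.4% in WT. The WT means of the 20 tested genes spanned a 68.7-fold range.

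**Figure D1:**
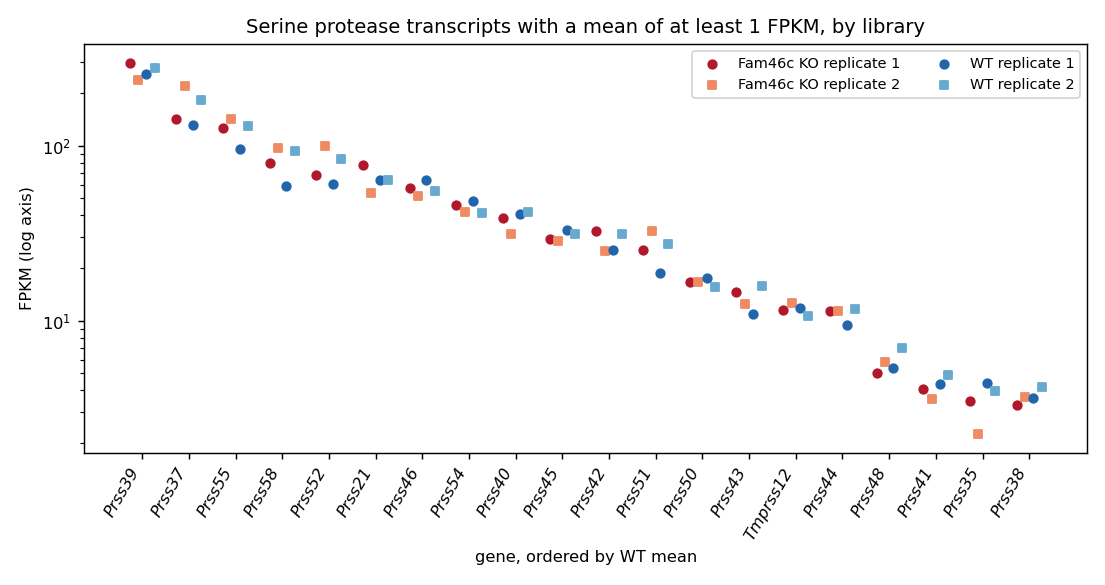
FPKM on a log axis of the 20 serine protease genes with a mean of at least 1 FPKM, in order of their WT mean; each point is 1 library, with the 2 Fam46c KO libraries left of the 2 WT libraries. Prss39 lies apart from the next gene in all libraries, and most neighbours in the order overlap.

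Prss39 stood highest. It encodes TESP1, a trypsin-like protein of the mouse acrosome, and was at 299 and 238 FPKM in KO and 257 and 278 FPKM in WT. It ranked 285 of 22552 symbols by WT mean. All of its values lay above all of those of Prss37, the next gene, whose WT mean was lower by a factor of 1.71.

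Prss37, a pseudoprotease needed for ADAM3 maturation in mice, was at 143 and 221 FPKM in KO and 131 and 182 FPKM in WT. Prss55, a sperm protease with a lipid anchor, was at 127 and 143 FPKM in KO and 96.3 and 129 FPKM in WT. In both genes KO replicate 2 was the highest library and WT replicate 1 the lowest, and the groups overlapped. Prss58, a trypsin-like gene on chromosome 6, was at 80.1 and 96.6 FPKM in KO and 58.6 and 92.9 FPKM in WT. Prss52 was at 68.1 and 99.6 FPKM in KO and 60.2 and 84.3 FPKM in WT. Prss51 was at 25.5 and 32.7 FPKM in KO and 18.8 and 27.6 FPKM in WT. These 3 genes had the same highest and lowest libraries as Prss37 and Prss55.

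Prss21 encodes testisin, a lipid-anchored sperm protease, and was at 77.2 and 53.7 FPKM in KO and 64.0 and 64.1 FPKM in WT. Its WT libraries were nearly equal and lay between the KO libraries. Prss54, which encodes a sperm pseudoprotease, was at 45.6 and 42.0 FPKM in KO and 48.4 and 41.1 FPKM in WT. Prss40 encodes TESP2, the acrosomal relative of TESP1, and was at 38.8 and 31.5 FPKM in KO and 40.8 and 41.8 FPKM in WT. Both KO values of Prss40 lay below both WT values. The level of Prss39 was 7.69 and 7.53 times that of Prss40 in KO and 6.30 and 6.65 times in WT, a ratio set up after the values were seen and given without a test.

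Tmprss12 was the only one of the 16 Tmprss genes above the 1 FPKM mean. It encodes a transmembrane protease of sperm that is needed for ADAM3 maturation in mice, and was at 11.6 and 12.6 FPKM in KO and 11.9 and 10.7 FPKM in WT. Prss38 was at 3.28 and 3.67 FPKM in KO and 3.64 and 4.16 FPKM in WT. The groups overlapped in both genes.

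The 7 genes grouped as testis cluster proteases were Prss41 to Prss46 and Prss50. Prss41 lies on chromosome 17 and the other 6 lie on chromosome 9. Of the 7, Prss46 stood highest and Prss41 lowest. Prss46 was at 57.4 and 51.7 FPKM in KO and 64.0 and 55.4 FPKM in WT, and Prss45 was at 29.4 and 28.5 FPKM in KO and 32.9 and 31.5 FPKM in WT. The KO and WT values overlapped for Prss46 and were apart, lower in KO, for Prss45. Prss42 and Prss43 encode TESSP2 and TESSP3, which have been tied to the progress of meiosis in mouse testis. Prss42 was at 32.8 and 24.9 FPKM in KO and 25.5 and 31.4 FPKM in WT. Prss43 was at 14.6 and 12.5 FPKM in KO and 10.9 and 15.8 FPKM in WT. The WT values of Prss42 lay inside the KO range, and the KO values of Prss43 inside the WT range.

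Prss50, also called TSP50, was at 16.6 and 16.7 FPKM in KO and 17.5 and 15.5 FPKM in WT. Prss44, which encodes TESSP4, was at 11.3 and 11.4 FPKM in KO and 9.40 and 11.7 FPKM in WT. In each of these genes both KO values lay inside the WT range. Prss41, which encodes the membrane-anchored TESSP1, was at 4.07 and 3.58 FPKM in KO and 4.34 and 4.92 FPKM in WT, with both KO values the lower ones. Prss48, which was placed in no role group, was at 5.03 and 5.81 FPKM in KO and 5.37 and 6.98 FPKM in WT, with overlapping groups.

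Prss35 was the only tested gene of the 7 secreted proteases known mainly from other tissues. It encodes a serine protease-like protein studied in the ovary, and was at 3.47 and 2.25 FPKM in KO and 4.40 and 3.98 FPKM in WT. Both KO values were below both WT values, and KO replicate 2 was the lowest. Of the 19 pairs of neighbours in the order of WT means, 5 had ranges that did not overlap over the 4 libraries: Prss39 over Prss37, Prss46 over Prss54, Prss51 over Prss50, Prss44 over Prss48 and Prss48 over Prss41. In the other 14 pairs the ranges over the 4 libraries overlapped, which does not compare the genes within a library. Some of these pairs, such as Prss37 over Prss55, kept their order within each library. Others, such as Prss52 and Prss21, did not.

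The 33 lower members summed to only 4.53 and 4.41 FPKM in KO and 4.92 and 3.77 FPKM in WT. They held 15 Tmprss genes, all 9 tryptase and epithelial proteases and all 3 digestive trypsins. The highest was Prss23, a secreted protease of many tissues, at 0.746 and 0.812 FPKM in KO and 1.57 and 0.735 FPKM in WT, a mean of 0.966 just under the filter. On the other side of the filter the lowest mean was that of Prss35, at 3.52 FPKM. Prss36, Tmprss11bnl (Tmprss11b in GRCm38.p6), Tmprss5 and Prss12, which encodes neurotrypsin, followed with values of 0.210 to 0.603 FPKM in the 4 libraries. Prss1, Prss3, Prss27, Prss28, Prss29, Prss30 and Tmprss11c were listed at 0 in all 4 libraries, which does not prove absence. Another 12 were at 0 in some libraries and 14 were above 0 in all. At a rough depth of 16700000 to 18500000 fragments in the shallowest library, a 1 kb transcript at 1 FPKM rests on about 16.7 fragments, a counting error of 24.5%. When limma was run without the filter on low values, 4 of the 33 passed an unadjusted p of 0.05, beside 3.44% of all symbols, and the smallest Benjamini-Hochberg adjusted p was 0.28. They were Tmprss6, which encodes matriptase-2, Prss33, Tmprss3 and Tmprss11a. Tmprss6 was at 0.269 and 0.232 FPKM in KO and 0.125 and 0.112 FPKM in WT. Tmprss3 and Tmprss11a were listed at 0 in both KO libraries and at no more than 0.0369 FPKM in WT. Their SEs of 0.00241 and 0.00151 come from near-equal values close to 0, so their p-values carry little weight.

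Of the 20 tested members, 13 lie in runs of neighbouring members in the gene order of GRCm38, and 7 do not, among them Prss37 and Prss58. Members were joined when at most 1 other protein-coding gene lay between them, which gave 9 runs, 4 with and 5 without a tested member. On chromosome 9, Prss42, Prss44, Prss43, Prss45, Prss46 and Prss50 stand in this order on the same strand, and all 6 were above 1 FPKM. Their sum was 162.0 and 145.6 FPKM in KO and 160.3 and 161.3 FPKM in WT. On chromosome 14, Prss55, Prss51 and Prss52 stand side by side, and their sum was 220.9 and 275.5 FPKM in KO and 175.3 and 240.7 FPKM in WT. The chromosome 1 pair Prss39 and Prss40 summed to 337.4 and 269.0 FPKM in KO and 298.0 and 320.1 FPKM in WT.

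Chromosome 17 gave a mixed run, with expressed and near-silent genes in turn. Between Prss41 and Prss21 lies Prss32, which was listed at 0 in both KO libraries and in WT replicate 1 and at 0.0343 FPKM in WT replicate 2. Prss33 on the other side of Prss41 stayed at 0.187 and 0.202 FPKM in KO and 0.0813 and 0 FPKM in WT. The next runs on this chromosome were Prss30, Prss22 and Prss27, and Prss34, Prss28 and Prss29, which include mast cell and uterine tryptases. Each of these runs by itself summed to at most 0.0430 FPKM in any library. The 6 Tmprss11 genes in a run on chromosome 5 summed to 0.741 and 0.842 FPKM in KO and 0.725 and 0.781 FPKM in WT.

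**Figure D2:**
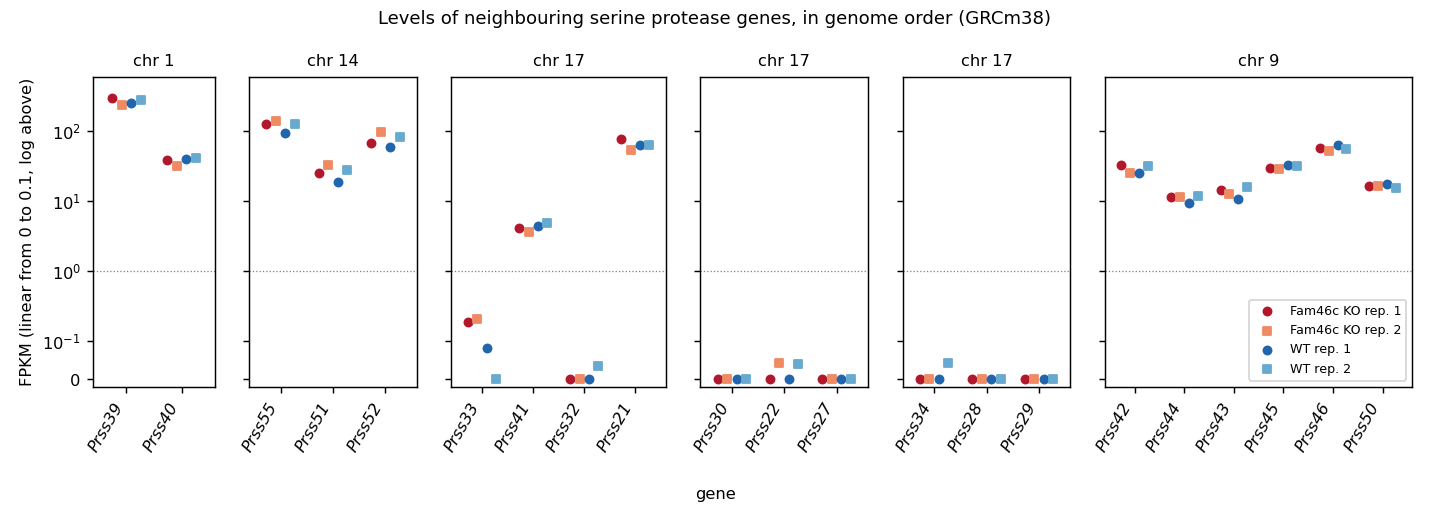
FPKM of neighbouring serine protease genes in the runs on chromosomes 1, 14, 17 and 9, in genome order, on an axis that is linear from 0 to 0.1 and log above; each point is 1 library, Fam46c KO left of WT, and the dotted line marks 1 FPKM. All 6 chromosome 9 genes lie above the line, and Prss41 and Prss21 lie above it beside Prss33 and Prss32 below it.

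Sequence shared with other genes was found in the transcripts of 18 of the 53 members, 4 of them tested and 14 lower. Of the 50-base windows of a member's transcripts, 0.0752% of those of Prss39 and 11.3% of those of Prss40 were also found in another gene, which for Prss40 was Cfc1 on the opposite strand as well as Prss39. Cfc1 was listed at 0 in all 4 libraries. Prss35 shared 1.66% of its windows and Prss38 9.55%, for Prss38 with an antisense gene, and the strand setting is not given. The genes of Prss55 and Prss51 overlap on opposite strands, but their transcripts shared 0% of windows with any other gene, as did those of Prss37, Prss58, Prss52, Prss21 and all 6 genes of the chromosome 9 run. The digestive trypsin genes Prss1 and Prss3 shared 54.9% and 66.1%. Among the other lower members, Prss53 shared 79.5%, Prss57 38.4%, Prss32 24.1% and Prss23 21.2%, so the values of these 6 genes are uncertain.

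No serine protease member was called different between Fam46c KO and WT testes. Limma on log2(FPKM + 1), with Benjamini-Hochberg adjustment over all 12258 tested genes, called 0 of 20 members at an adjusted p under 0.05, beside 0.114% of all tested genes. Higher in KO were 0 members and 0.0245% of all tested genes, and lower in KO were 0 members and 0.0897% of all tested genes. The adjusted p was 1 for each of the 20. The log2 fold changes ran from -0.44 for Prss35 to 0.33 for Prss51, with 11 positive and 9 negative. Their median was 0.01, beside -0.01 over all tested genes. The 95% intervals of all 20 lay between -0.84 and 0.74, so a 2-fold change on the FPKM + 1 scale was outside each interval. For low genes these intervals do not bound the change in FPKM itself. With 0.1 added in place of 1, the log2 fold change of Prss35 was -0.57 (SE 0.23).

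At an unadjusted p under 0.05 there was 1 member, Prss35, beside 2.02% of all tested genes. It was lower in KO, beside 1.11% of all tested genes, and 0 members were higher, beside 0.914%. Its level averaged 2.86 ± 0.861 FPKM in KO and 4.19 ± 0.296 FPKM in WT (SD, n = 2 each), a log2 fold change of -0.44 (SE 0.18, 95% interval -0.84 to -0.05, limma unadjusted p = 0.0315, adjusted p = 1). The log2 fold change was -0.22 without KO replicate 2 (limma unadjusted p = 0.313) and -0.67 without KO replicate 1 (limma unadjusted p = 0.00785). The Leydig cell hormone Insl3 was also lower in KO, at 379 and 189 FPKM in KO and 1099.6 and 1136 FPKM in WT (log2 fold change -2.06, limma adjusted p = 0.00507). The summed level of 6 Leydig cell markers, Insl3 among them, was 634 and 308 FPKM in KO and 1275 and 1377 FPKM in WT. Insl3 carried the difference in that sum: the other 5 markers summed to 255 and 119 FPKM in KO and 176 and 241 FPKM in WT, with KO replicate 1 the highest library and overlapping groups. A sum is ruled by its highest genes. Taken gene by gene, 5 of the 6 Leydig markers had a negative log2 fold change and 1 a positive one, with a median of -0.36. All 3 tested macrophage markers were negative (median -0.51), as were 4 of 6 Sertoli (-0.05) and 4 of 6 spermatocyte markers (-0.03). Of the 6 spermatid markers, 5 were positive (median 0.12). KO replicate 2 was the lowest library for Prss35, for Insl3 and for both Leydig sums. The part of Leydig cells or of any other cell type in the Prss35 value was not tested.

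**Figure D3:**
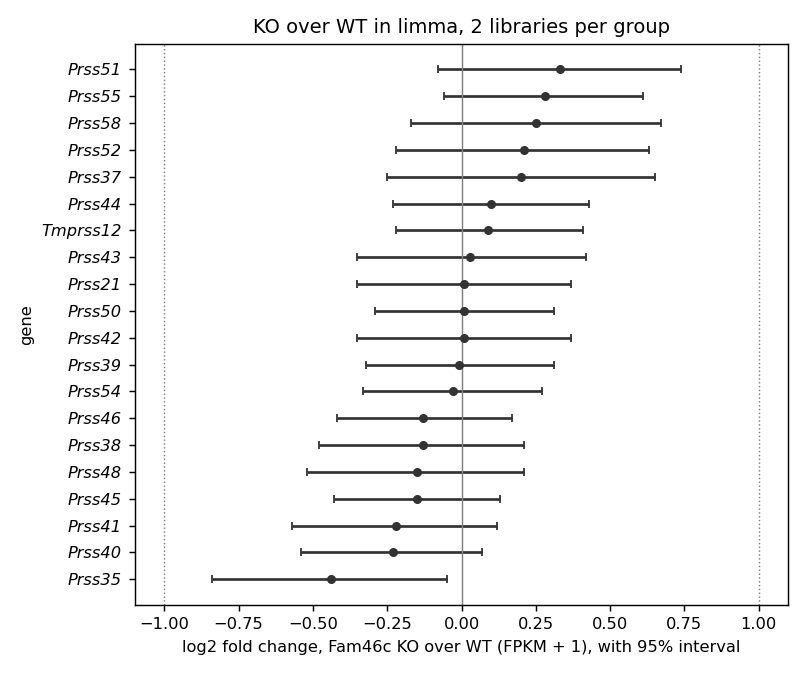
Log2 fold change of Fam46c KO over WT on the FPKM + 1 scale for the 20 tested serine protease genes; points are limma estimates and bars 95% intervals, with dotted lines at a 2-fold change. All bars stay inside the dotted lines, and that of Prss35 alone leaves out 0.

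Groups without overlap were found for 4 of the 20 members with KO lower, namely Prss40, Prss45, Prss41 and Prss35, beside 10.6% of all tested genes. With KO higher there were 0 of 20, beside 9.47% of all tested genes. The log2 fold change was -0.23 for Prss40 (SE 0.14), -0.15 for Prss45 (SE 0.13) and -0.22 for Prss41 (SE 0.16), with limma adjusted p = 1 for each. Prss40, an acrosomal gene, averaged 35.2 ± 5.17 FPKM in KO and 41.3 ± 0.708 FPKM in WT. Prss45 averaged 29.0 ± 0.588 FPKM in KO and 32.2 ± 1.03 FPKM in WT (SD, n = 2 each for both genes).

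The members with the largest positive values were Prss51 (log2 fold change 0.33, SE 0.19), Prss55 (0.28, SE 0.15), Prss58 (0.25, SE 0.19), Prss52 (0.21, SE 0.19) and Prss37 (0.20, SE 0.21), and in each the groups overlapped. Single libraries moved them widely. Without WT replicate 1 the log2 fold change was 0.06 for Prss51 and 0.07 for Prss55, and without WT replicate 2 it was 0.60 and 0.48. Without WT replicate 1 the values of Prss58, Prss52 and Prss37 were -0.08, -0.03 and -0.04. For 18 of the 20 members the log2 fold change was smaller than the larger of the log2 differences between replicates of a group. The same share over all tested genes was not computed, so this count does not set the members apart. The median absolute log2 difference was 0.20 between the KO replicates and 0.22 between the WT replicates over the 20 members, beside 0.16 and 0.14 over all tested genes.

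Differences between libraries of a group were shared by several members. In 5 of the 20 genes WT replicate 1 was the lowest and KO replicate 2 the highest library, beside 6.14% of all tested genes. These were Prss37, Prss58 and the chromosome 14 run Prss55, Prss51 and Prss52, a pattern noticed in the values and given without a test. WT replicate 1 was the lowest library in 7 of the 20 members, beside 15.9% of all tested genes. KO replicate 2 was the lowest library in 8 members, among them Prss39, Prss21 and Prss40, beside 30.9% of all tested genes. WT replicate 1 also had the lowest summed level of spermatid markers, whose highest library was KO replicate 1, and the part of cell composition in these values was not tested.

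**Figure D4:**
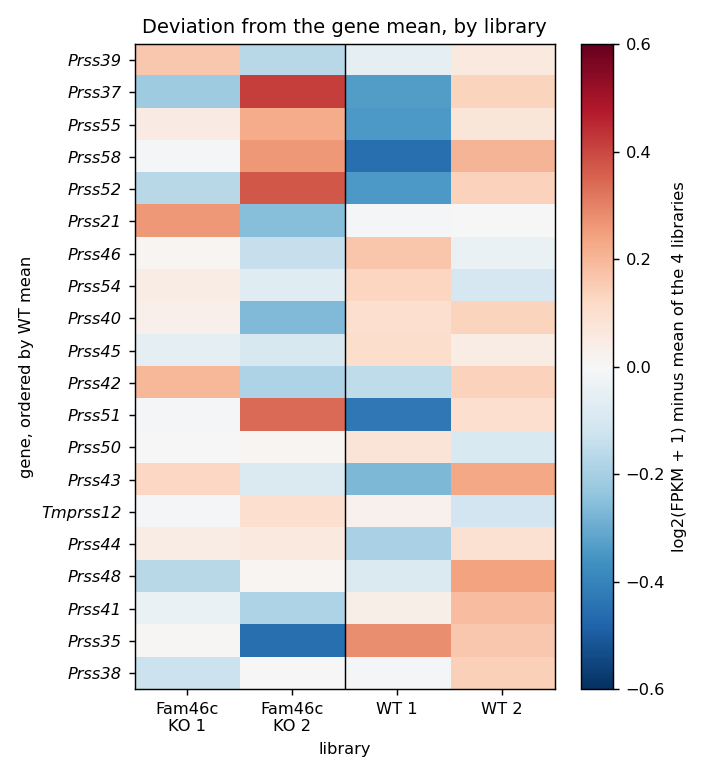
Deviation of log2(FPKM + 1) from the mean of the 4 libraries for the 20 tested genes, with the Fam46c KO libraries left of the WT libraries; red is above and blue below the gene's mean. Prss37, Prss55, Prss58, Prss52 and Prss51 are blue in WT replicate 1 and red in KO replicate 2.

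The genes of ADAM3 maturation, which include ADAM proteins and the chaperones and enzymes they need, had 0 of 19 tested members called by limma, and 0 at an unadjusted p under 0.05. Their median log2 fold change was 0.01. Adam3, named after its values were seen as the protein whose maturation needs several of the proteases, was at 478 and 445 FPKM in KO and 436 and 469 FPKM in WT. The members of smallest p were the testis chaperone gene Calr3 (log2 fold change 0.23), Adam4 (0.17), Ly6k, which encodes a lipid-anchored sperm protein (-0.13), and the chaperone gene Hspa2 (-0.12), with limma adjusted p = 1 for each.

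Serine protease inhibitors are the counterpart of the proteases. Limma called 0 of 19 tested inhibitor genes, beside 0.114% of all tested genes. Of the 19, 14 had a negative and 5 a positive log2 fold change, with a median of -0.04. Over all 12258 tested genes, 6408 were negative and 5850 positive. An unadjusted p under 0.05 was found for 4 of the 19, all lower in KO, beside 2.02% of all tested genes in either direction and 1.11% lower. Groups without overlap were found for 6 inhibitor genes with KO lower and 1 with KO higher, beside 10.6% and 9.47% of all tested genes. The 4 were Spink4, a secreted Kazal-type inhibitor (log2 fold change -0.81, SE 0.23, limma adjusted p = 0.909), Serping1, which inhibits complement C1 proteases (-0.64), Serpinf1 (-0.50) and Serpina3c (-0.42), with adjusted p = 1 for the last 3. Spink4 was at 1.94 and 4.12 FPKM in KO and 5.81 and 5.81 FPKM in WT. In all 4 genes the KO values lay below the WT values.

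Among sperm and membrane proteases with other names, limma called 0 of 5 tested genes, beside 0.114% of all tested genes. At an unadjusted p under 0.05 there was 1 of the 5, Htra1, beside 2.02% of all tested genes. Acr, which encodes the main acrosomal protease acrosin, was at 115 and 112 FPKM in KO and 118 and 111 FPKM in WT, a log2 fold change of -0.01. Pcsk4, a processing protease of germ cells, was at 51.4 and 56.1 FPKM in KO and 56.2 and 53.9 FPKM in WT. Htra1, a secreted serine protease, was at 2.90 and 1.97 FPKM in KO and 4.44 and 2.98 FPKM in WT (log2 fold change -0.45, limma unadjusted p = 0.0421, adjusted p = 1). Plat, the tissue plasminogen activator gene, had a log2 fold change of -0.05.

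Promoters were searched because expressed and near-silent members stand side by side in the chromosome 17 run. RefSeq promoters of GRCm38.p6, 300 bases from 250 before the start, were matched for 14 of the tested and 24 of the lower members, and a gene with several promoters was counted once if any held the letters. TGACGTCA, the full site of cAMP response element factors, was found on either strand in 0 of 14 and 0 of 24, beside 1.79% of 32851 promoters. Its shorter core TGACG, which lies within the full site, was found in 3 of 14 tested members (Prss35, Prss38 and Tmprss12) and 6 of 24 lower members, beside 20.8% of promoters. AACNGTT, a MYB-type site, was found in 1 of 14 (Prss37) and 3 of 24, beside 4.45%. The shares over all promoters count each promoter and those of members count genes. A member with several promoters, such as Prss23, can therefore match more easily. In the chromosome 17 run, the promoters of Prss33, Prss41, Prss32 and Prss21 held none of these letters. The 250 bases before the start are shown for the highest pair of genes, with the AACNGTT match in capitals, for Prss37 at chr6:40519509-40519758 on the minus strand and for Prss39 at chr1:34498162-34498411 on the plus strand.
Prss37: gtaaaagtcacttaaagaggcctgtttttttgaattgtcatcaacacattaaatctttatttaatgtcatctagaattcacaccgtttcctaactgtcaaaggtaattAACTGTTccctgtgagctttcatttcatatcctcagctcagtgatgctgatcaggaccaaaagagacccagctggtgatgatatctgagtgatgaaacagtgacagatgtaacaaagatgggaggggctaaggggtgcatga
Prss39: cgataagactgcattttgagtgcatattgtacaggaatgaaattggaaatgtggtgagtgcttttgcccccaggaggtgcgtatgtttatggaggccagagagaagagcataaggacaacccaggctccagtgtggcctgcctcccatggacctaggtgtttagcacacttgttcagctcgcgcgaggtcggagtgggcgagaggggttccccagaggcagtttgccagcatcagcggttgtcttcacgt
A match describes letters in these windows and is not a shown site of binding.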

How the data were processed

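The deposited values are FPKM, 1 table per library, per the file headers. Per the submitters' processing notes, which give no role or order, the tools were Cufflinks 2.0.2, TopHat2 2.0.6 and Cuffdiff, and mm9 was the build. The sources used here do not give annotation, strand setting or filters. Repeated symbols were summed, and none was a member. The deposited FPKM were converted to log2(FPKM + 1), and the 12258 symbols averaging 1 FPKM or more were fitted in limma 3.58.1 under R 4.3.3, with moderated variances and an intensity trend (2 residual and 9.48 prior degrees of freedom), two-sided, with Benjamini-Hochberg adjustment and a threshold of 0.05. A fold change on this scale understates the change of low genes. The procedure was run on simulated libraries of 12258 genes with independent normal noise, where 200 genes were changed 2-fold on the FPKM + 1 scale. The noise of each gene was set from a running median of the variances of genes of similar level. Such genes therefore did not differ in spread as the real genes do. The procedure recovered 100% of the 200 and made 15 false calls, which does not measure its power in the real libraries. Smaller changes and shifts shared by several genes were not simulated. The members, lists and tests were chosen with earlier results of these data known. Every tested member was named, with the 5 highest others and up to 4 genes of smallest p per related list. GRCm38 served only for gene order, transcripts and promoters, since the files' build is mm9. Relative depth came from ratios of values under 0.1 FPKM between libraries, and absolute depth from the transcript length of genes that have just 1 transcript in GENCODE M21. Pseudocount, filter, scaling, variance model, replicate block and each library were varied.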

Additional observations from a re-analysis of the deposited data

How the results depend on the processing

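Limma called 0 members, 0 ADAM3 maturation genes and 0 other proteases under all 14 alternatives, and the smallest adjusted p of the 20 tested members was 0.606, for Prss35 without KO replicate 1. The unadjusted p of Prss35 was above 0.05 with no filter (0.138), quantile normalization (0.0507), and without KO replicate 2 (0.313), WT replicate 1 (0.118) or WT replicate 2 (0.0509). The count over all genes, 14, was 1 with no filter, 9 with a mean of at least 5 FPKM, 6 after median scaling, 6 after quantile normalization, 7 after total scaling, 8 with robust variance and 9 to 20 with a library left out, lowest without KO replicate 2. With the replicate number as a replicate block it was 68, and 1 inhibitor gene was called, Spink4. In that fit 3 of the 20 members had a limma unadjusted p under 0.05, beside 356 of 12258 tested genes. They were Prss35 (0.0185), Prss51 (0.0283) and Prss55 (0.0424). Differences between replicates 1 and 2 correlated at -0.0254 between KO and WT, so no shift shared by replicate number was seen over all tested genes together. Single genes can differ from this. Prss37, Prss55, Prss58, Prss52 and Prss51 were lower in replicate 1 in both groups, which follows from the pattern they were picked by. The labels do not say whether the numbers pair the libraries, and this correlation cannot decide it. The members' median log2 fold change, 0.01, was -0.07 to 0.02 with a library left out and lay between -0.02 (total scaling) and 0.02 (median scaling) under the other alternatives. Values near 0 changed sign, with no call: Prss21 to -0.00 after quantile normalization and -0.02 after total scaling, Prss39 to 0.00 after median scaling, and Prss42 and Prss50 to -0.02 and -0.02 after total scaling. With a library left out, log2 fold changes ran from -0.25 to 0.27 for Prss21, -0.12 to 0.52 for Prss37, -0.17 to 0.16 for Prss39, -0.18 to 0.20 for Prss42, -0.21 to 0.28 for Prss43, -0.04 to 0.24 for Prss44, -0.32 to 0.01 for Prss48, -0.07 to 0.09 for Prss50, -0.06 to 0.48 for Prss52, -0.14 to 0.09 for Prss54 and -0.08 to 0.58 for Prss58, and, with no change of sign, -0.67 to -0.22 for Prss35, -0.38 to -0.09 for Prss40, -0.30 to -0.15 for Prss41, 0.06 to 0.60 for Prss51 and 0.07 to 0.48 for Prss55. Prss37, Prss52 and Prss58 turned negative without WT replicate 1, and Prss37 and Prss52 also without KO replicate 2. The cause was not tested.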
